A study of Drosophila melanogaster with 8 samples.

Results

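Heads of Canton-S flies, the wild-type strain of the study, were profiled by polyA+ RNA-seq at 3 temperatures, 18°C, 25°C and 29°C. According to the labels the flies grew at these temperatures, whereas by the study's methods crosses were kept at 25°C and adults were then moved, and its text calls the flies entrained, that is, kept in a daily light cycle at the given temperature before collection. Each temperature and time was measured in 1 library, with ZT3, ZT15 and a late-night point at 18°C and 29°C and with ZT3 and ZT15 at 25°C, 8 libraries in all. ZT is the time in hours since lights on, so that ZT3 lies in the morning and ZT15 early in the night. The late-night point is 23 in the labels and 21 in the study's methods, and it is called late night here. The labels give no sex or age, and no library has a replicate at its own temperature and time.

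The transcripts described here are those that were high at ZT3 at every temperature. The values of a library were divided by their sum and multiplied by 1000000 (the scaled value), and 1 was added before log2 was taken. This log2 scale makes the changes of low transcripts look smaller than they are. Members were chosen by the ZT3 and ZT15 libraries alone. They averaged a scaled value of 5 or more, stood higher at ZT3 than at ZT15 by at least 0.8 on the log2 scale at each of the 3 temperatures, and were counted once per gene. Of the 11500 genes listed, 6731 had a transcript with a mean of at least 5, and 1 gene, CG8483, met the rule. The rule reversed, with ZT3 lower by at least 0.8, was met by 4 genes. The differences between ZT3 and ZT15 chose the gene, so they are given as a description without a test.

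In the fly clock, the factors CLOCK and CYCLE drive per, tim and vri towards a peak in the early night, and VRI in turn represses Clk and cry, whose mRNAs are known for levels that are higher late at night and in the morning. Other genes known for daytime rises respond to light, feeding or neuronal activity. CG8483 has no annotated role in the files used here.

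Members of the per and tim arm checked the ZT3 and ZT15 labels. The most abundant tim transcript had a scaled value of 25.9 at ZT3 against 84.1 at ZT15 at 18°C, 13.2 against 142.6 at 25°C and 21.3 against 151.7 at 29°C. All 3 pairs thus had tim higher at ZT15, and per and vri were also higher at ZT15 in every pair. Photoreceptor, neuron and glia markers were above 0 in all 8 libraries. The 4 photoreceptor markers summed to between 19300 and 24426 at 29°C against between 10571 and 14648 at 18°C, and 3 of them were called higher at 29°C in the test described below, while the 1 glia marker and 1 of 4 neuron markers were called lower. The library of 29°C at ZT15 stood apart. Markers of 4 organs outside the head summed there to 144 for the accessory gland, 661 for the midgut, 31.1 for the testis and 39.7 for the ovary, against at most 1.08, 1.32, 0.634 and 2.16 in any other library. Head fat body markers summed to 48257 and 43896 at 25°C and to between 10089 and 20113 in the other libraries. The part of these differences in the results below was not tested.

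CG8483 lies on the minus strand of chromosome 3R from 13208754 to 13214465 in BDGP6, whose coordinates are newer than those of dm3, the build of the deposited values. It has 1 annotated transcript of 4 exons, 1869 nt long with a coding length of 1176 nt, which is also the only one listed (CG8483-RA). No other annotated gene overlaps it. The nearest gene with listed values, Ace, which encodes acetylcholinesterase, lies 8485 bp away, and its most abundant transcript was lower at ZT3 than at ZT15 at all 3 temperatures, by between 0.10 and 0.72 on the log2 scale.

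CG8483 was high in the morning libraries and low in the early-night ones at each temperature. At 18°C its scaled value was 156 at ZT3 against 5.60 at ZT15, a 27.9-fold difference. At 25°C it was 33.1 at ZT3 against 2.49 at ZT15, 13.3-fold. At 29°C it was 41.4 at ZT3 against 6.67 at ZT15, 6.2-fold. The 29°C pair uses the ZT15 library that stood apart, which held the highest ZT15 value of CG8483. The deposited coverage at ZT15 was low, with 0.522 per base pair at 18°C, 0.232 at 25°C and 0.673 at 29°C. The fold differences depend on these low values. All ZT3 values lay above all ZT15 values, but the rule used these same libraries, so this partly restates the choice of the gene. The share of all transcripts with such a separation was not computed. In whole heads, fewer cells of a type and less RNA per cell cannot be told apart. From the coldest to the warmest flies the log2 differences were 4.57, 3.29 and 2.47. Each was the largest among the 12577 transcripts with a mean of at least 5, whose median differences were -0.11, -0.13 and -0.13. A difference of at least 0.8 towards ZT3 was held by 0.461% of these transcripts at 18°C, 0.342% at 25°C and 0.421% at 29°C, and by 0.00795% at all 3 temperatures, against 0.0875% for the opposite direction.

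**Figure D1:**
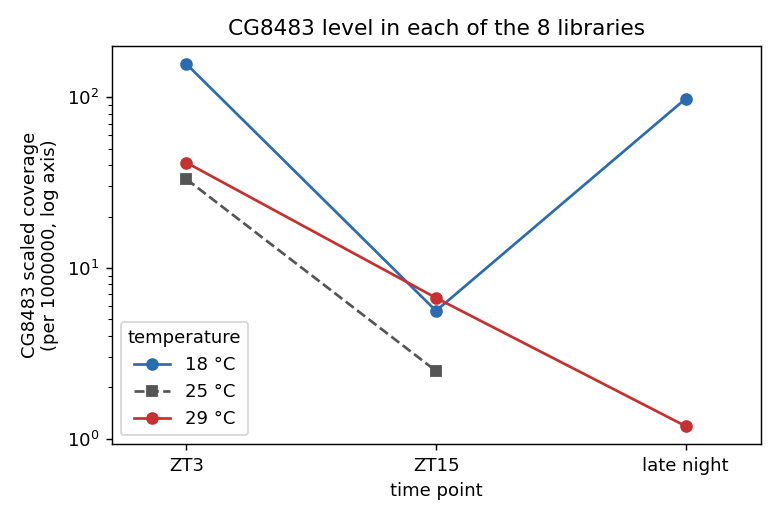
Scaled coverage of CG8483 (y axis, per 1000000, log axis) at ZT3, ZT15 and late night (x axis), with 1 point per library and lines joining the libraries of a temperature. The late-night library is second highest of all at 18°C (97.9) and lowest of all at 29°C (1.18).

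The late-night libraries, which the rule did not use, put CG8483 at opposite ends at the 2 temperatures that have them. At 18°C the late-night value was 97.9, second only to ZT3 at 18°C among all 8 libraries and 17.5-fold above ZT15. At 29°C it was 1.18, the lowest of all libraries and 5.64-fold below ZT15, which at 29°C is the library that stood apart. On the log2 scale the late-night level stood at 0.85 of the way from ZT15 to ZT3 at 18°C, and at -0.74 of it, on the far side of ZT15, at 29°C. A late-night level at least 0.8 above ZT15 was held by 0.239% of the transcripts at 18°C, and one at least 0.8 below ZT15 by 3.86% at 29°C. Since the rule asked for a low ZT15 and a high ZT3 value, differences of late night from either are partly set by it and are given as a description. At 29°C CG8483 was highest at ZT3 among 3 times, whereas at 18°C it was high at late night as well.

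Between temperatures CG8483 also differed most at late night. There the scaled value was 1.18 at 29°C against 97.9 at 18°C, a log2 difference of -5.50 and the largest fall among the 12577 transcripts, of which 6.76% were lower by at least 0.8. The deposited coverage behind these values was 0.128 per base pair at 29°C against 9.19 at 18°C. The size of this fall thus rests on a value near the floor. At ZT3 it was 41.4 at 29°C against 156 at 18°C, a log2 difference of -1.89, where 8.95% of transcripts were lower by at least 0.8. At ZT15 the values were 6.67 at 29°C and 5.60 at 18°C, a log2 difference of 0.22.

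Temperatures were compared with limma over all 8 libraries with the time point as a term, so that the spread is that left between single libraries after the temperature and time means. The 14799 transcripts with a mean of at least 1 were tested with Benjamini-Hochberg adjustment at 0.05. CG8483 did not pass. At 29°C against 18°C its log2 difference was -2.39 (SE 0.95, adjusted p = 0.0850 from limma, unadjusted 0.0432), and lower at 2 of the 3 time points. At 25°C against 18°C it was -2.34 (SE 1.11, adjusted p = 0.163 from limma), with lower values in both pairs of libraries. Between 29°C and 25°C the log2 difference was -0.05 (SE 1.11, adjusted p = 0.975 from limma), a comparison that called 2.12% of all transcripts lower and 2.79% higher. At 25°C against 18°C, 21.2% were called lower and 3.38% higher. At 29°C against 18°C, 27.1% of all transcripts were called lower and 16% higher. Higher calls were 37.1% of all calls, but 62.2% with the 75th percentile in place of the sum as the scaling, which moved the median log2 difference of all transcripts to 0.08, against -0.08. Whether CG8483 was called depended on single libraries. A call was gained without the library of 18°C at ZT15 (-3.47, adjusted p = 0.0339 from limma) and without that of 29°C at ZT15 (-3.40, adjusted p = 0.0131 from limma). Without either late-night library the log2 difference shrank to -0.84 (adjusted p = 0.247 from limma).

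The genes nearest to the rule were few. On the smallest of its 3 differences CG8483 had 2.47, and the next genes were ple with 0.79 (transcript CG10118-RB), CG13305 with 0.74 and Miox with 0.67, all short of 0.8. A smallest difference of at least 0.6 was held by 11 genes and one of at least 0.3 by 49, against 9 and 107 genes in the opposite direction. With the minimum mean lowered to 1, Hr38 and CG14961 also met the rule. The 10 genes between 0.6 and 0.8 and these 2 low genes are called the 12 near-threshold genes below.

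**Figure D2:**
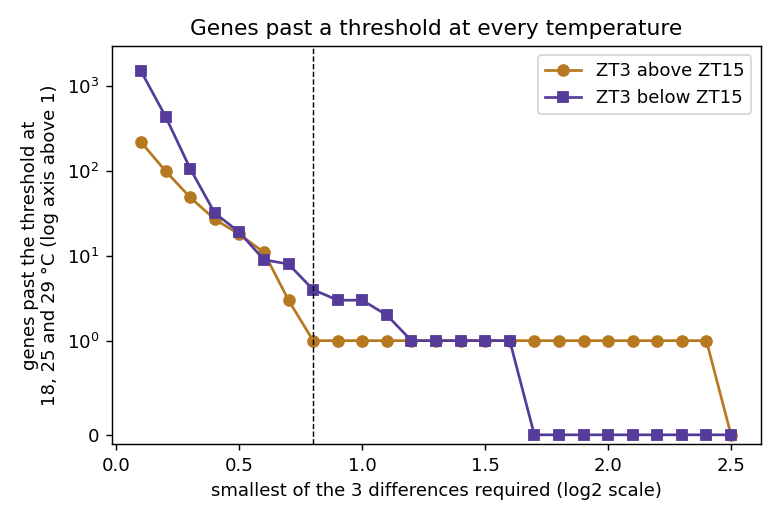
Number of genes (y axis, log axis above 1) whose ZT3 and ZT15 libraries differed in the same direction by at least the value on the x axis (log2 scale) at all 3 temperatures, for ZT3 above ZT15 and for ZT3 below ZT15; the dashed line marks 0.8. All genes counted have a mean of at least 5. CG8483 is the only one on the ZT3 side from 0.8 up to 2.4, while 4 genes remain on the ZT15 side at 0.8.

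**Figure D3:**
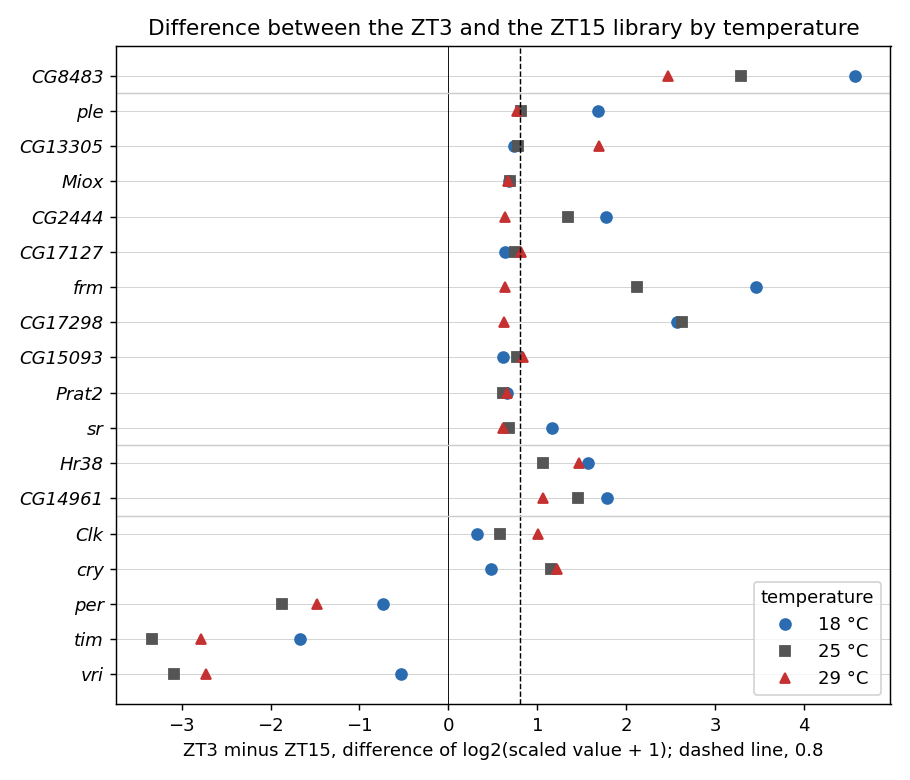
ZT3 minus ZT15 as a difference of log2(scaled value + 1) (x axis) at the 3 temperatures for CG8483, the 10 genes just short of 0.8, the 2 genes with a mean under 5, and 5 clock genes (rows), 1 point per pair of libraries. CG8483 has all 3 points above 2.4, and the points of cry and Clk lie short of the dashed line of 0.8 at 18°C.

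Some near-threshold genes had a late-night level above that at ZT3. Miox, the oxygenase that begins the breakdown of inositol, had 365 at ZT3, 228 at ZT15 and 552 at late night at 18°C, 450.3 at ZT3 and 278 at ZT15 at 25°C, and 297, 186 and 354 at 29°C. It was thus highest at late night at both temperatures with that library. CG17127 had 9.81, 5.96 and 14.1 at 18°C and 3.02, 1.29 and 4.86 at 29°C in the same order of times, with the same ranking. These were 2 of the 12 genes, and no other had a late-night value above ZT3 at either temperature. For 3 others the late-night value lay between ZT15 and ZT3 at both temperatures and nearer to ZT3. Prat2, which catalyses the first committed step of purine synthesis, had 86.3 at ZT3, 54.1 at ZT15 and 70.01 at late night at 18°C and 81.9, 51.4 and 67.0 at 29°C. CG15093 and CG13305 stood at 0.81 and 0.68 of the way from ZT15 to ZT3 at 18°C and at 0.69 and 0.70 at 29°C. An antisense RNA gene overlaps CG15093, and whether strand was used for the coverage is not given in the sources used here.

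sr and Hr38, both known as genes of the activity response, were low again at late night. sr, the fly EGR-type transcription factor that neuronal activity induces, had 10.1 at ZT3, 3.92 at ZT15 and 3.58 at late night at 18°C, 6.59 at ZT3 and 3.74 at ZT15 at 25°C, and 6.47, 3.90 and 2.94 at 29°C. Hr38, the NR4A-type nuclear receptor that is used as an activity marker in insect brains, had 7.41, 1.84 and 1.25 at 18°C, 3.97 and 1.37 at 25°C, and 5.22, 1.25 and 0.967 at 29°C. Both genes had their 3 highest values in the 3 ZT3 libraries, which their choice favoured, and the late-night value was under that of ZT15. Hr38 overlaps 3 other genes on the other strand. Among the listed activity genes, 8 had a mean of at least 5. Of these, 4 (sr, CG14186, CG17778 and CG8910) were higher at ZT3 at every temperature, against 7.81% of all genes with such a mean. The rule used this same contrast and sr was named by it as near-threshold, so the count is a description only. CG14186 had 27.2 at ZT3 against 20.3 at ZT15 at 18°C, 32.2 against 21.2 at 25°C and 38.9 against 18.4 at 29°C. Its differences of 0.41, 0.58 and 1.04 on the log2 scale passed 0.8 at 29°C alone. CG17778 was higher at ZT3 by 0.56, 0.73 and 0.65, and CG8910 by only 0.11, 0.08 and 0.38. The remaining 4, kay, Jra, CrebB and CG46385, were lower at ZT3 in every pair, by 0.32 at most. Of all 6731 genes with such a mean, 2986 were lower at ZT3 in every pair. At late night kay and CrebB were above ZT3 at both temperatures, with 40.9 against 35.8 for kay and 22.9 against 18.8 for CrebB at 29°C.

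The remaining near-threshold genes were ple and CG14961, and frm, CG2444 and CG17298, which are set beside CG8483 below. ple, the tyrosine hydroxylase that makes dopa for dopamine and for cuticle tanning, had 193 at ZT3, 59.3 at ZT15 and 88.01 at late night at 18°C, 62.4 at ZT3 and 35.04 at ZT15 at 25°C, and 24.0, 13.7 and 21.4 at 29°C in its most abundant transcript. The value at ZT3 led at each temperature, and all values at 29°C were below all values at 18°C and 25°C. CG14961, which overlaps CG14969 on the other strand, had 3.39 at ZT3, 0.278 at ZT15 and 0.478 at late night at 18°C, 3.93 at ZT3 and 0.795 at ZT15 at 25°C, and 3.73, 1.26 and 1.62 at 29°C.

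Genes with a pattern like that of CG8483 were sought, after the values had been seen, by Pearson's r of the log2 levels over the 8 libraries, among 6730 other genes with a mean of at least 5. The closest were frm (r = 0.96, Spearman's rho = 0.98), Cht5 (r = 0.95, rho = 0.93), CG8785 (r = 0.92, rho = 0.95) and CG2444 (r = 0.90, rho = 0.95). The libraries share their scaling and are not replicates of each other, so these values describe the profiles only. Without the 2 libraries farthest from the median of CG8483, 18°C at ZT3 and 29°C at late night, r was 0.93 for frm, 0.90 for Cht5, 0.92 for CG8785 and 0.84 for CG2444. frm had 22.5 at ZT3, 1.13 at ZT15 and 8.75 at late night at 18°C, 5.66 at ZT3 and 0.532 at ZT15 at 25°C, and 6.42, 3.79 and 0.690 at 29°C. Cht5, a chitinase of the moulting cuticle, had 73.9, 15.5 and 51.7 at 18°C, 27.0 and 5.77 at 25°C, and 17.8, 14.3 and 5.86 at 29°C. Like CG8483, both were highest at 18°C at ZT3, second highest of the 18°C libraries at late night, and lowest at late night among the 29°C libraries. At 29°C the difference between ZT3 and ZT15 was 0.63 for frm and 0.29 for Cht5, which kept them out of the rule. CG17298, which overlaps SIFaR on the other strand, had 130.4, 21.2 and 33.4 at 18°C, 32.7 and 4.44 at 25°C, and 12.6, 7.80 and 0.0953 at 29°C. It followed CG8483 less closely, with r = 0.87 (rho = 0.88), and 0.74 without the 2 farthest libraries. CG2444, which overlaps PhKgamma on the other strand, had 41.3, 11.4 and 15.03 at 18°C, 14.3 and 5.05 at 25°C, and 11.6, 7.07 and 4.44 at 29°C.

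**Figure D4:**
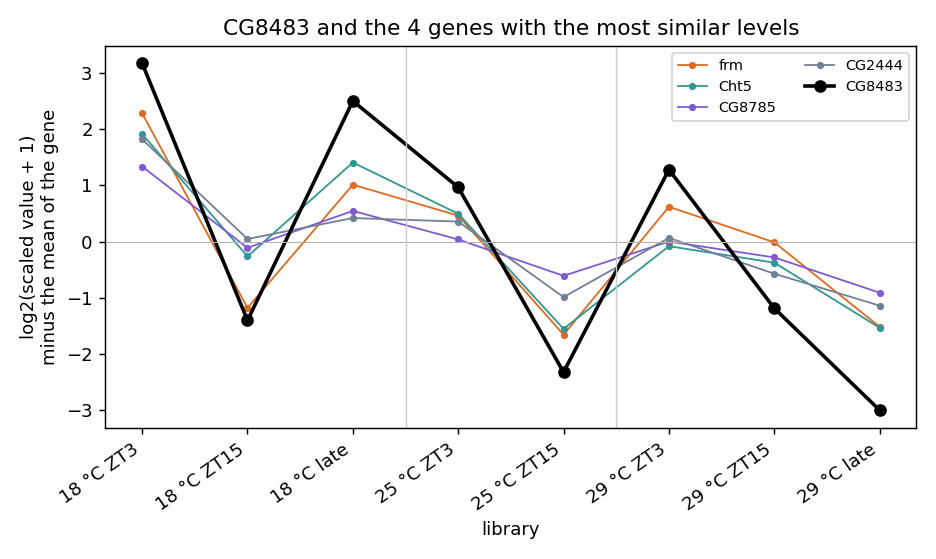
log2(scaled value + 1) minus the mean of the gene (y axis) in the 8 libraries (x axis, by temperature and time) for CG8483 and the 4 genes closest to it; lines join the values of a gene and do not stand for time. All 5 genes are highest in the library of 18°C at ZT3, and all 5 are lower at 29°C at late night than at ZT3 and ZT15 of that temperature.

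**Figure D5:**
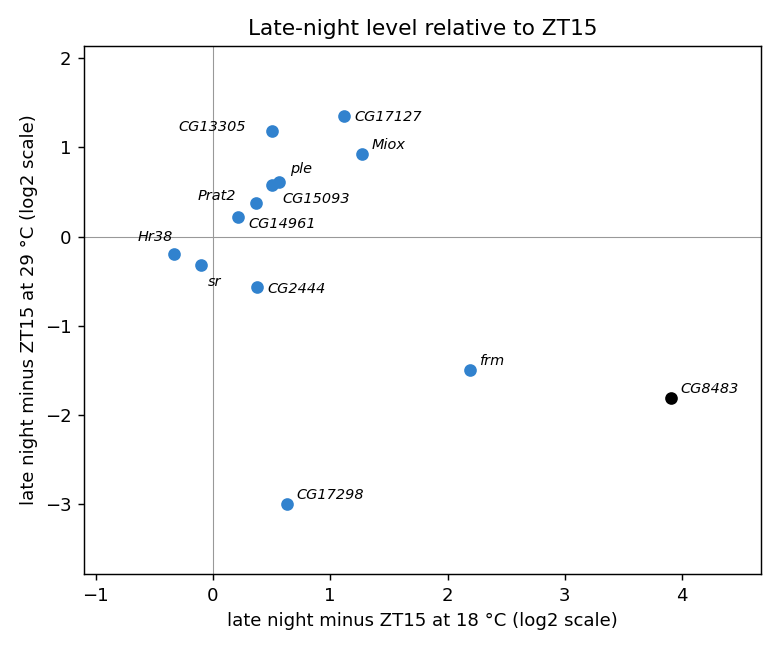
Late night minus ZT15 on the log2 scale at 18°C (x axis) and at 29°C (y axis), 1 point per gene, for CG8483 (black) and the 12 near-threshold genes (blue). CG8483 lies at 3.90 and -1.81. The genes frm, CG17298 and CG2444 are also above 0 at 18°C and below 0 at 29°C, and Hr38 and sr are below 0 at both. The values at 29°C use the ZT15 library that stood apart.

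The near-threshold genes were also compared between 29°C and 18°C. Their choice used a minimum mean over all libraries, which some met through the 18°C values, as CG17127 did with a mean of 5.66, so the count of calls is a description only. Of the 12 genes 5 were lower and 1 was higher, where 27.1% of all transcripts were called lower and 16% higher. ple fell to a log2 difference of -2.33 (SE 0.21, adjusted p = 0.00128 from limma) and was lower at all 3 time points. CG17298 fell, at -3.19 (SE 0.63, adjusted p = 0.00931 from limma), and so did CG17127 at -1.46 (SE 0.083, adjusted p = 0.00108 from limma), CG2444 at -1.31 (SE 0.21, adjusted p = 0.00496 from limma) and Miox at -0.41 (SE 0.097, adjusted p = 0.0176 from limma). CG14961 rose by 0.58 (SE 0.15, adjusted p = 0.0245 from limma), but from low values. Cht5, which is not one of the 12, fell as well, at -1.68 (SE 0.50, adjusted p = 0.0365 from limma), whereas frm did not pass (-1.01, SE 0.63, adjusted p = 0.238 from limma). The calls of ple and CG17127 held in all 17 alternatives, though CG17127 was at -0.88 with a pseudocount of 5. CG17298 and CG2444 lost theirs in 1 of 17, without the time point as a term (adjusted p = 0.0516 and 0.0879 from limma). The fall of CG17298 involved a late-night value of 0.0953 at 29°C, near the floor, and was -2.31 without either late-night library. Not all alternatives are distinct for 29°C against 18°C. Leaving out either late-night library, or both, gave the same values, and so did leaving out either 25°C library. The tallies count such fits more than once. Cht5 lost its call in 10 of 17 alternatives, among them without either late-night library (-1.05). CG14961 lost it in 10 of 16, among them without either ZT15 library of these temperatures (0.50 without 18°C and 0.49 without 29°C) or either late-night library (0.46), and it was at 0.19 with a pseudocount of 5. Miox lost it in 7 of 17, among them without either late-night library (-0.29) and without 18°C at ZT3 (-0.46), and its difference shrank to -0.24 with scaling to the 75th percentile and to -0.13 with quantile normalization. Calls were gained by frm without 18°C at ZT15 (-1.87) or 29°C at ZT15 (-1.89). CG13305 gained one without 29°C at ZT15 (0.74, against 0.46 with it) and with scaling to the 75th percentile (0.62). Hr38 gained one without either 25°C library (-0.32) and with a pseudocount of 0.1 (-0.45).

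The fall of ple and Cht5 was set beside other genes of cuticle tanning and chitin, a list written after these values had been seen. Of its 20 tested genes, 16 were lower at 29°C than at 18°C and 0 were higher at an adjusted p under 0.05 from limma, and the number higher was also 0 at an unadjusted p under 0.05. Over all 8433 genes tested by their most abundant transcript, 23.8% were lower and 19.5% higher. Among the 18 with a mean of at least 5, 5 were higher at ZT3 than at ZT15 at every temperature, namely ple, Cht5, Ddc, t and e, against 7.81% of all genes. ple and Cht5 had prompted the list, so these counts partly restate its choice. Only ple and e passed 0.8 at 18°C besides Cht5, and no gene of the list passed it at 29°C. Ddc, the next enzyme after ple in the making of dopamine, had 79.04 at ZT3, 78.5 at ZT15 and 79.5 at late night at 18°C and 40.5, 37.8 and 34.5 at 29°C. It differed by 0.09 at most between ZT3 and ZT15, unlike ple.

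Clk and cry, the clock genes with a morning level, did not meet the rule. cry, the blue-light photoreceptor of clock cells, had 73.3 at ZT3, 52.4 at ZT15 and 70.6 at late night at 18°C, 92.8 at ZT3 and 41.02 at ZT15 at 25°C, and 94.4, 40.0 and 79.5 at 29°C. Its differences between ZT3 and ZT15 were 0.48, 1.16 and 1.22, so that the 18°C pair alone kept it out. Clk had 9.42, 7.36 and 11.5 at 18°C, 7.31 and 4.57 at 25°C, and 12.5, 5.72 and 13.6 at 29°C, with differences of 0.32, 0.58 and 1.01. In contrast to CG8483, both genes had the smaller differences at 18°C, and the late-night level differed from that at ZT3 by between -0.24 and 0.26 on the log2 scale. The levels of cry and Clk between 29°C and 18°C did not pass the test (log2 differences of 0.05 and 0.10, adjusted p = 0.821 and 0.605 from limma).

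Among genes with a mean of at least 5, those that passed 0.8 at 2 temperatures mostly fell short at 18°C or at 29°C. CG8483 was the only one of them past 0.8 at both 18°C and 29°C. Hr38 and CG14961 also passed at both, but with lower means, and are not counted here. At 18°C and 25°C 9 further genes passed and fell short at 29°C, where their differences ranged down to below 0 in 2 of them. These were ple, Cht5, frm, CG2444, CG17298, dnd, Mmp1, a matrix metalloproteinase, dyw and CG5697. dyw had 92.1 at ZT3 against 18.6 at ZT15 at 18°C, 32.6 against 6.31 at 25°C and 23.4 against 39.4 at 29°C. The direction of dyw thus turned at 29°C, in the pair with the library that stood apart. At 25°C and 29°C 10 further genes passed and fell short at 18°C. These were cry, Pdh, GstZ2, Fmo-2, Acsx3, TotC, CG31777, CG32407, CG7724 and CG9649. Pdh, the photoreceptor dehydrogenase of the retinal pigment cells, had 1374 at ZT3 against 1013 at ZT15 at 18°C, 1573 against 868 at 25°C and 1163 against 560.5 at 29°C. GstZ2, a glutathione transferase of the zeta class, had 24.6 against 18.0 at 18°C, 32.1 against 15.3 at 25°C and 38.6 against 13.03 at 29°C. For both genes ZT3 was higher in every pair and the difference on the log2 scale was smallest at 18°C.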

How the data were processed

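PolyA+ RNA of fly heads was sequenced. The submitters' processing notes name dm3, TopHat, Bowtie2 and Cufflinks without their roles. The deposited values are a coverage signal, averaged per base pair of each of 18387 listed transcripts, with sums between 92886 and 108550 per library. Any scaling is not given in the sources used here. The number of reads is unknown, so no counting error is given. A further 75 unnamed columns, with values in 99 rows, were not used. Gene symbols were matched for 11283 of 11500 genes in RefSeq and positions were read from BDGP6.

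Values were scaled to a sum of 1000000 and taken as log2(value + 1). Temperatures were compared with limma 3.58.1 in R 4.3.3, with temperature and time point as factors, in the transcripts with a mean of at least 1. Time points served as replicates of a temperature, so p-values measure only the spread between single libraries. On simulated data with 14799 transcripts, limma recovered 93% of 200 changes of 1.5 on the log2 scale between 29°C and 18°C, with 9 false calls among 195. The simulated noise was normal and independent between libraries, and each temperature change was the same at every time. In the deposited data many more transcripts were called, and the library of 29°C at ZT15 stood apart. These rates therefore need not carry over to the deposited data. Figures used Python 3.11.15 and matplotlib 3.10.9.

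The member and the gene lists were chosen with earlier results of these data known. Named genes are the members, the genes just short of the thresholds, members of the lists, and Clk, cry, per, tim and vri. The genes most like CG8483, those past 0.8 at 2 temperatures and the cuticle list were chosen after their values had been seen. Promoter and protein sequences were not used here.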

Additional observations from a re-analysis of the deposited data

Results flagged for a closer look

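CG8483 moved in opposite directions between ZT15 and late night at the 2 temperatures, by 3.90 on the log2 scale at 18°C and by -1.81 at 29°C. frm did the same, with 2.19 at 18°C and -1.504 at 29°C. CG5697 and TotC turned between ZT3 and ZT15. CG5697 was higher at ZT3 by 1.93 at 18°C and by 1.33 at 25°C and differed by -1.68 at 29°C, where its scaled value was 0.544 at ZT3 against 3.95 at ZT15. TotC differed by -0.81 at 18°C and was higher at ZT3 by 1.34 at 25°C and by 0.97 at 29°C. Each direction comes from 1 library per time point, and the differences between temperatures were not tested. At 29°C all of these differences use the ZT15 library that stood apart, where CG8483 and frm had their highest ZT15 value.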

How the results depend on the processing

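CG8483 met the rule in all 14 alternatives, 2 of them chosen after seeing the data. The number of genes was 3 with a pseudocount of 0.1, with a minimum mean of 1, with scaling to the 75th percentile and with the transcripts of a gene summed, 8 with quantile normalization and 11 with a difference of 0.6. It was 10 with the pairs at 18°C and 25°C alone, 11 with those at 25°C and 29°C, and 17 with a minimum mean of 1 and a difference of 0.6 (chosen after seeing the data). The late-night position of CG8483 kept its sign under both other pseudocounts and under scaling to the 75th percentile, from 0.83 to 0.86 at 18°C and from -0.92 to -0.46 at 29°C.

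CG8483 was called in no comparison of temperatures, except as lower at 29°C than at 18°C (0 to 1 calls) when 1 library was left out. Its log2 difference then ranged from -3.47 to -0.84, and its adjusted p from limma ranged from 0.0131 to 0.247 over all alternatives. Without the time point as a replicate block it was -2.39 (adjusted p = 0.237 from limma), and of the 12 near-threshold genes 2 were then lower and 0 higher, against 5 and 1. The number higher was also 0 with a pseudocount of 5, no filter, a minimum mean of 5, quantile normalization, limma's trend option or the ZT3 and ZT15 libraries alone (chosen after seeing the data), and 2 with scaling to the 75th percentile. Leaving out 1 library gave 0 to 1 higher and 4 to 6 lower. Prat2 was at 0.10 with scaling to the 75th percentile and at 0.13 with quantile normalization, against -0.07, and CG15093 ranged from -0.0084 to 0.091 when 1 library was left out. The causes were not tested. With 1 library per time and temperature, time of day cannot be told apart from any other difference between single libraries.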

Other observations

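Genes of vision and detoxification added no member. Of 27 phototransduction genes with a mean of at least 5, 0 passed 0.8 towards ZT3 at 18°C, 1 at 25°C and 3 at 29°C, against 0.565%, 0.52% and 0.52% of all genes, and 3 were higher at ZT3 at every temperature against 8 that were lower. Their median difference on the log2 scale stood at -0.16, -0.09 and -0.0038 from the coldest to the warmest flies. Of 71 detoxification genes of the Cyp, Gst and Ugt families, 0, 1 and 2 passed at these temperatures, and 15 were higher at ZT3 at every temperature against 14 that were lower. Over all 6731 genes, 526 were higher and 2986 lower at ZT3 at every temperature.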
